A study of Mus musculus with 30 samples.

Results

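The genes described here are the T cell coreceptors Cd4, Cd8a and Cd8b1 and the nuclear factors that fix which coreceptor a T cell keeps: Zbtb7b, Runx3, Runx1, Gata3, Cbfb and Satb1. They are 9 genes taken by symbol, and all 9 are listed in each of the 3 deposited count tables, which hold 21983 or 46095 symbols. CKO mice, as labelled, were CD4-Cre+ PRMT5fl/fl, in which Cre driven by the Cd4 promoter deletes Prmt5, the gene of an arginine methyltransferase. WT mice were labelled wild type on the same C57BL/6 strain and are called control in the design text. Ages and treatments are not given in the labels. Bulk RNA was sequenced from sorted thymus DP cells (both coreceptors), thymus CD4 SP cells, thymus CD8 SP cells, spleen CD4 cells and spleen CD8 cells, with 3 CKO and 3 WT libraries in each, 30 in all. No group carried CD4-Cre alone, so an effect of Cre and an effect of Prmt5 loss cannot be told apart.

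A coreceptor binds the same MHC molecule as the T cell receptor and brings the kinase Lck to it: CD4 binds class II, and CD8, made of the Cd8a and Cd8b1 products, binds class I. Thymocytes pass a stage with both coreceptors and then keep one. Zbtb7b encodes ThPOK, which holds cells in the CD4 lineage and represses CD8 lineage genes, while Runx3, which binds DNA with its partner Cbfb, silences Cd4 and Zbtb7b in the CD8 lineage. Runx1 silences Cd4 in earlier thymocytes with the same partner, Gata3 acts upstream of ThPOK, and Satb1 organises chromatin around these loci.

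Promoters of the member genes are shown because ThPOK and the Runx factors act on one another's genes. The windows are the 250 bases before an annotated start, from RefSeq on GRCm38.p6, 5′ to 3′ on the gene's strand. Capitals mark the Runx core TGTGGT or its reverse complement ACCACA. The Zbtb7b window, before the downstream of 2 annotated starts (chr3:89387672-89387921, minus strand), holds 1 core that begins 89 bases before the start. The Runx3 window, before its upstream (distal) start (chr4:135120395-135120644, plus strand), holds 2 cores, at 134 and 126 bases before the start. The Cd8a window (chr6:71373177-71373426, plus strand) holds none.
Zbtb7b: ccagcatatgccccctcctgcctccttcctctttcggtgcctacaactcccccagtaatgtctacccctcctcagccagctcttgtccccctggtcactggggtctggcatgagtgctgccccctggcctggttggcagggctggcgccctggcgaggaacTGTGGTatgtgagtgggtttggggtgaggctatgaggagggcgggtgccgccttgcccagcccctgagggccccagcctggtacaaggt
Runx3: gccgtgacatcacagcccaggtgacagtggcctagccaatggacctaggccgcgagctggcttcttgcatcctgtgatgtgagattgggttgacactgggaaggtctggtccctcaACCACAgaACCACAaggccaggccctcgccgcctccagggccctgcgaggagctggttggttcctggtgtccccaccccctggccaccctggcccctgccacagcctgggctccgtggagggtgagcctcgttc
Cd8a: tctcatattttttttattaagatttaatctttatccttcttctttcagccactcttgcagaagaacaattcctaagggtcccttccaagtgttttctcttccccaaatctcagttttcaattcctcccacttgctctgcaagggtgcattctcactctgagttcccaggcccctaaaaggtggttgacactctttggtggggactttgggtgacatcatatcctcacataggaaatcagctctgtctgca
The table held 14 windows for 7 of the 9 members, with none for Cd4 and Cd8b1. The core was found in 2 of the 14 windows, and in 14.05% of the 32851 windows of this length in the table. No match was found in the 14 windows for AGATAA (the GATA core, 9.99% of all windows) or CTTTGA (a TCF/LEF core, 13.8%), both strands searched. A match is a run of letters and not a measured binding site.

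Total counts ran from 11865600 to 35353400 per library. The targeted gene, Prmt5, was lower in all 3 CKO libraries than in all 3 WT libraries of every population. Its log2 change in the thymus was -1.09 ± 0.09 (SE) for DP, -0.99 ± 0.27 for CD4 SP and -0.31 ± 0.05 for CD8 SP. In the spleen it was -0.97 ± 0.10 for CD4 and -0.87 ± 0.12 for CD8 cells. With edgeR's quasi-likelihood test the thymus DP call (adjusted p = 8.45e-04) was lost in a fit over the table's 12 libraries, the thymus CD4 SP value did not pass (0.958), and the thymus CD8 SP call (0.0450) was lost without any 1 of its 6 libraries (0.0541 to 0.164). Levels below are CPM, counts scaled to library size with TMM factors within a table. A log2 value sets CKO over WT and carries its SE, and an adjusted p is from edgeR over all genes tested, with 0.05 as the threshold. Levels were set side by side only within a table: thymus DP with thymus CD4 SP, spleen CD4 with spleen CD8, and thymus CD8 SP alone.

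The Cd4 gene (chr6:124864692-124888221, minus strand, GRCm38) followed the sorted populations. It had 1639, 1573 and 1748 CPM in thymus DP of CKO and 1674, 1583 and 1657 CPM in thymus DP of WT. In spleen CD4 cells it had 954, 923 and 891 CPM in CKO and 863, 847 and 852 CPM in WT. Thymus CD4 SP cells had 1068 to 1695 CPM in CKO and 1007 to 1273 CPM in WT. The coreceptor transcript was thus abundant in every library sorted for CD4. In spleen CD8 it had 3.15, 2.61 and 3.07 CPM in CKO and 1.85, 1.94 and 13.7 CPM in WT, where library WT 71 stood apart. That library carried 1.603% of the mean level of WT spleen CD4 cells, against 0.216% and 0.228% in the other WT libraries and 0.283% to 0.341% in CKO libraries.

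Cd8a (chr6:71373427-71379173) and Cd8b1 (chr6:71322788-71337494) are neighbours on the plus strand of chromosome 6 and encode the chains of CD8. Cd8a had 1481, 1210 and 1177 CPM in spleen CD8 of CKO and 1250, 1165 and 1103 CPM in spleen CD8 of WT. Cd8b1 had 803, 635 and 699 CPM in the same CKO cells and 851, 774 and 725 CPM in the WT cells. The genotypes overlapped for both. Divided by the longest coding transcript, Cd8a reached 375 ± 23.5 and Cd8b1 528 ± 42.8 CPM per kb in WT spleen CD8 cells (SD, n = 3).

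**Figure D1:**
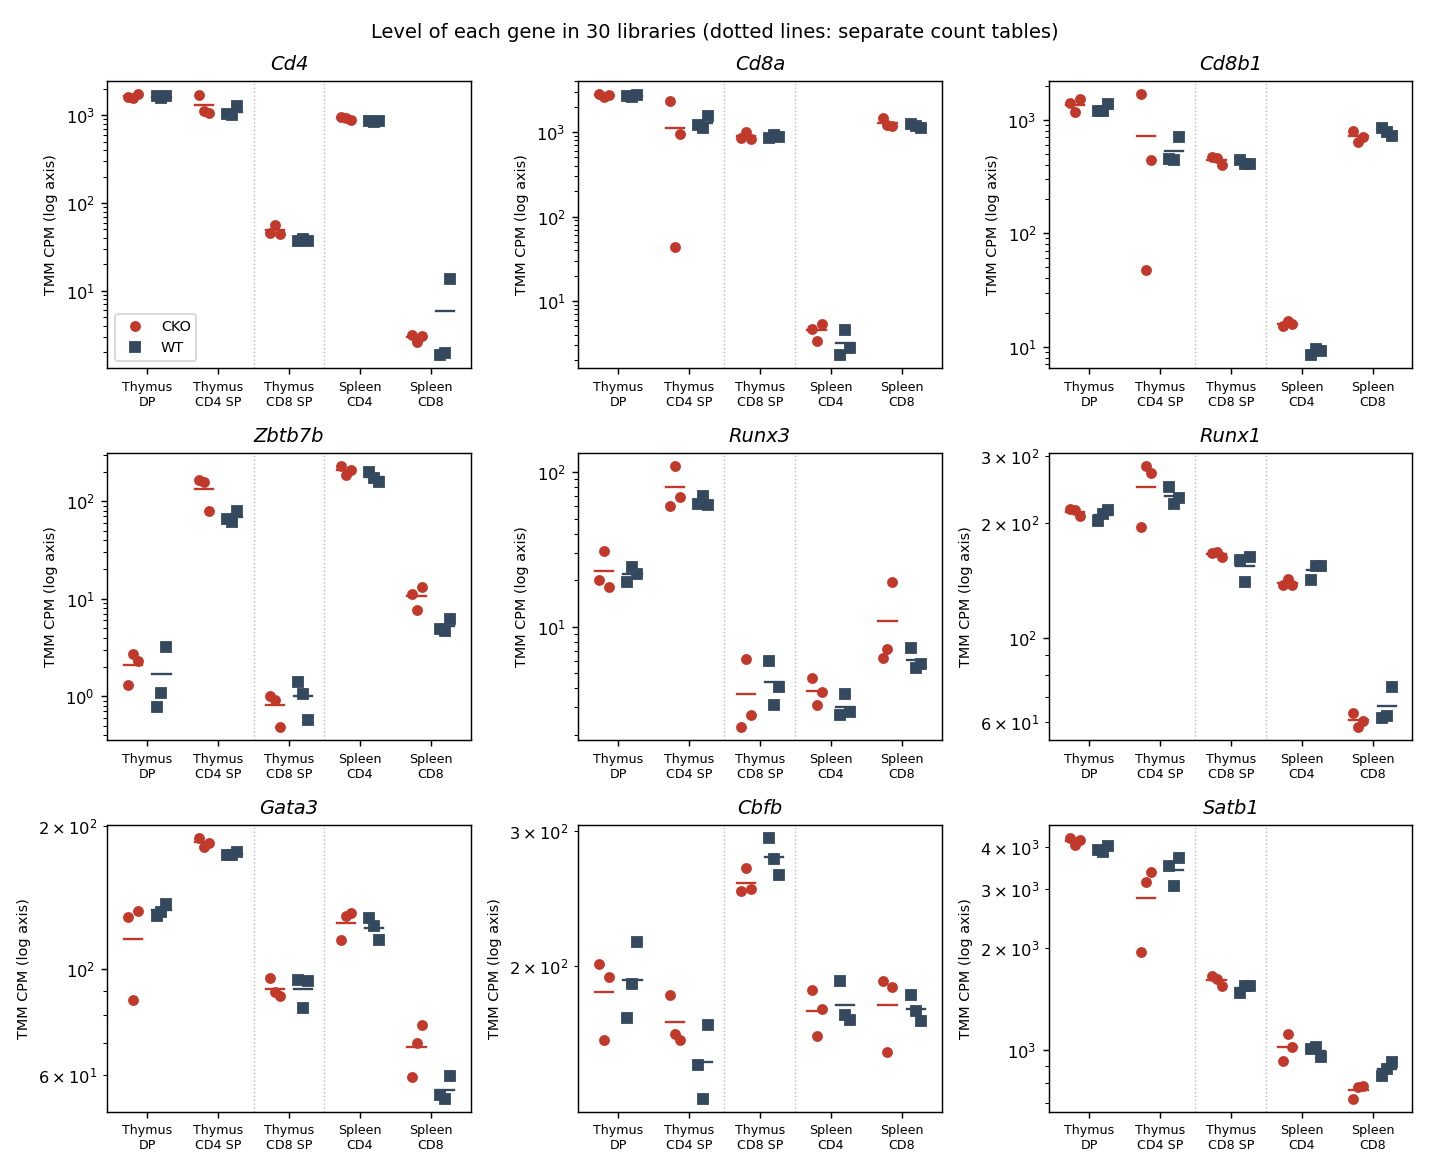
TMM-scaled CPM (log axis) of the 9 genes in each library, with CKO (red circles) left of WT (dark squares) in each of 5 populations and bars at group means; dotted lines separate tables whose levels are not compared. Cd8b1 in spleen CD4 (15.3 to 16.7 CPM in CKO, 8.44 to 9.55 CPM in WT) and Zbtb7b in spleen CD8 (7.67 to 13.4 CPM in CKO, 4.70 to 6.27 CPM in WT) show genotypes that do not overlap.

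Among the regulators, Zbtb7b (chr3:89377644-89394776, minus strand) marked the CD4 lineage. It had 231, 185 and 211 CPM in spleen CD4 of CKO and 200, 172 and 157 CPM in spleen CD4 of WT. Thymus CD4 SP cells had 165, 158 and 80.2 CPM in CKO and 66.3, 61.1 and 80.2 CPM in WT. In DP cells it stood at 1.29 to 2.75 CPM in CKO and 0.784 to 3.18 CPM in WT. In the thymus, Zbtb7b was therefore high in CD4 SP cells and near the floor in DP cells, before lineage choice.

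Runx3 (chr4:135120652-135177990, plus strand) was counted at low levels in 2 of the 3 tables. Thymus CD4 SP had 60.2 to 110 CPM in CKO and 61.2 to 70.04 CPM in WT, and DP had 18.2 to 30.9 CPM in CKO and 19.4 to 24.5 CPM in WT. In the other tables it ran from 2.25 CPM (thymus CD8 SP of CKO) to 19.4 CPM (spleen CD8 of CKO). These tables list more symbols, and what sets this gap was not tested. Runx3 levels across tables are therefore not read as differences between populations.

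Runx1 (chr16:92601466-92826149, minus strand) had more counts per length than Runx3 in every WT population. In WT spleen CD8 cells Runx1 had 11.3 ± 1.19 and Runx3 1.58 ± 0.252 CPM per kb of longest coding transcript (SD, n = 3). In WT thymus CD4 SP cells the values were 40.1 ± 2.13 for Runx1 and 16.6 ± 1.27 for Runx3. Outside thymus DP and CD4 SP the low Runx3 counts are unexplained, as said above. There the gap between Runx1 and Runx3 is one of counts and is not read as a difference in transcript amount. Cbfb (chr8:105170674-105217989, plus strand), their shared partner, lay in a narrow band in the spleen, with 154 to 191 CPM in all CKO libraries and 170 to 191 CPM in all WT libraries. An RNA annotated inside it, AI225912, had 12.03 to 17.4 CPM in the spleen, and its reads could not be separated from those of Cbfb with certainty because the strand setting of the counting is not given.

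Gata3 (chr2:9857078-9890034, minus strand) had 180 to 189 CPM in thymus CD4 SP of CKO and 173 to 176 CPM in thymus CD4 SP of WT. In the spleen it was lower in CD8 cells, at 59.4 to 76.3 CPM in CKO and 53.4 to 59.5 CPM in WT, than in CD4 cells, at 115 to 131 CPM in CKO and 115 to 128 CPM in WT. Satb1 (chr17:51736187-51833290, minus strand) had the highest level per length of the 6 regulators in WT thymus DP, at 630 ± 13.9 CPM per kb (SD, n = 3). It had 4039 to 4249 CPM in thymus DP of CKO and 3851 to 4024 CPM in thymus DP of WT, and 719 to 782 CPM in spleen CD8 of CKO against 840 to 926 CPM in spleen CD8 of WT.

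The first population contrast sets CD8 cells against CD4 cells of the same spleens. The coreceptors were what the sort used and are given as a check of the labels. Of the other 6 genes 5 separated the lineages in both genotypes: Runx3 was higher in CD8 cells and Zbtb7b, Runx1, Gata3 and Satb1 were lower. In WT mice Zbtb7b had a log2 of -5.07 ± 0.12 (CD8 over CD4, adjusted p = 5.33e-11 with edgeR), Gata3 -1.14 ± 0.07 (7.53e-08) and Runx1 -1.19 ± 0.08 (2.17e-07). Runx3 had 1.003 ± 0.20 (0.00231) and Satb1 -0.18 ± 0.06 (0.0310). Cbfb did not pass, with -0.03 and a 95% interval of -0.16 to 0.11. That is 5 of 6 called in WT, where 31.9% of all genes tested were called.

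In CKO mice 5 of 6 were called in the same directions, against 18.6% of all genes. Zbtb7b had -4.28 ± 0.18 (edgeR adjusted p = 9.96e-07), Runx1 -1.20 ± 0.07 (5.43e-06), Gata3 -0.87 ± 0.10 (4.40e-04), Satb1 -0.43 ± 0.08 (0.00457) and Runx3 1.498 ± 0.41 (0.0337). Without CKO 72 the counts of called regulators fell to 3, since Runx3 (0.78, adjusted p = 0.178) and Satb1 (-0.45, 0.0773) missed the threshold; Runx3 also missed it without CKO 68 (0.0810). The Satb1 call in WT was lost without WT 67 (0.162) and without WT 70 (0.257). Of the helper lineage genes 0 were higher and 7 lower in CD8 cells of 9 tested in CKO mice, and 0 higher and 9 lower of 9 in WT mice. Of 14 cytotoxic lineage genes 14 were higher in CD8 cells of CKO mice, and 12 were higher and 1 lower in those of WT mice.

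The second contrast sets thymus CD4 SP cells against DP cells of the same mice. In WT mice Zbtb7b was higher in CD4 SP cells by a log2 of 5.32 ± 0.32 (edgeR adjusted p = 6.85e-08), Runx3 by 1.56 ± 0.12 (7.81e-07) and Gata3 by 0.40 ± 0.09 (0.00290). Cbfb was lower, at -0.35 ± 0.11 (0.0258), a call lost without WT 18 (0.199). These were 4 of the 6 regulators, where 39.8% of all genes were called. Most helper lineage genes tested were higher in WT CD4 SP cells. Of the cytotoxic genes that also passed the filter on low counts in DP cells alone, Cxcr3 (2.43), Tbx21 (1.62) and Itgae (1.34) were higher. Others, such as Gzmb (5.04) and Nkg7 (3.25), passed the filter only through their CD4 SP counts, so their direction was fixed in advance. Bcl6 (-1.11) and Gzma (-0.86) were lower, and Prf1 was not called. The WT CD4 SP libraries kept 22.9% to 44.2% of the DP level of Rag1, a gene of the DP stage. The part of other cells in the Runx3 value was not tested. In CKO mice 2 of the 6 regulators were called, against 5.41% of all genes: Zbtb7b at 6.03 ± 0.46 (edgeR adjusted p = 0.00426) and Runx3 at 1.83 ± 0.32 (0.0262). Neither passed without CKO 17 (0.114 for Zbtb7b, 0.181 for Runx3) or without CKO 23 (0.158 and 0.262).

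The Cd8a to Cd8b1 count ratio within a library does not depend on scaling between libraries. Spleen CD8 cells had ratios of 1.84, 1.91 and 1.68 in CKO and 1.47, 1.51 and 1.52 in WT, so that every CKO library lay above every WT library. The mean log2 ratio was 0.85 ± 0.09 in CKO and 0.58 ± 0.03 in WT (SD, n = 3 each), a difference of 0.27. An exact two-sided permutation test gave p = 0.1, the smallest that 3 against 3 allows, and 0.667 after adjustment over the 20 ratios tested. In thymus DP the ratio was 1.81 to 2.24 in CKO and 1.96 to 2.21 in WT, and in thymus CD8 SP it was 1.83 to 2.14 in CKO and 1.88 to 2.28 in WT. The genotypes overlapped in both. Thymus CD4 SP had 0.922 to 2.17 in CKO, below the 2.20 to 2.71 of WT.

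**Figure D2:**
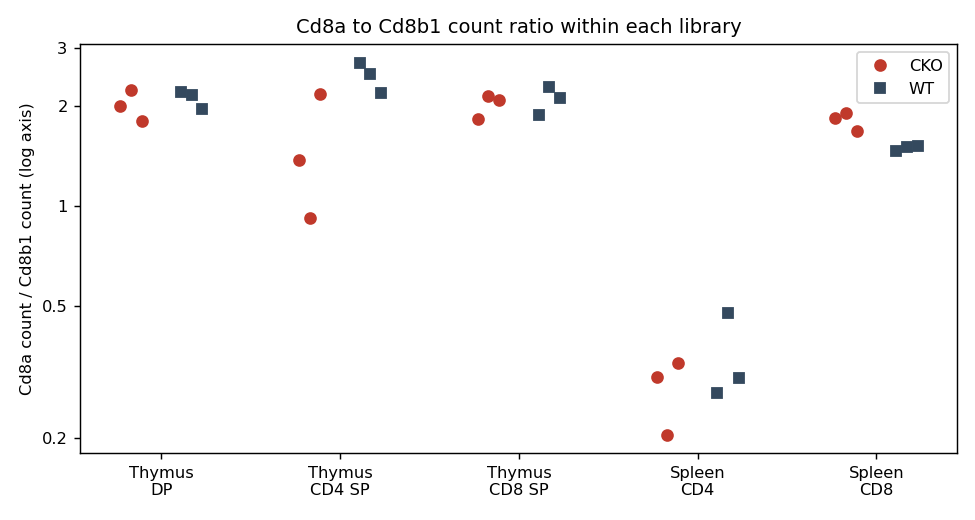
Cd8a counts divided by Cd8b1 counts within each library (log axis), CKO (red circles) left of WT (dark squares), for 5 populations. Spleen CD8 libraries lie at 1.68 to 1.91 in CKO and 1.47 to 1.52 in WT, and in spleen CD4 the few CD8 reads are mostly Cd8b1, with ratios below 0.5 in all 6 libraries.

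Comparisons of CKO with WT within each population ask whether Prmt5 loss went with a change in these genes. In thymus DP cells 0 of the 9 were called, where 0.0258% of 11634 genes were called. Estimates were small and tight for the abundant members: Cd4 0.01 (95% interval -0.14 to 0.17), Cd8a 0.04 (-0.12 to 0.20), Runx1 0.03 (-0.10 to 0.16) and Satb1 0.08 (-0.08 to 0.24). Zbtb7b, counted 14 to 59 times per library, had the widest interval, 0.28 (-0.78 to 1.34). None of the 9 had an unadjusted p under 0.05, and DESeq2 also called 0. Satb1 was the 1 member whose genotypes did not overlap, as did 12.2% of all genes. In the 7 pathway lists edgeR called 0 of 74 genes (16 at an unadjusted p under 0.05), and DESeq2 called 0. Tox, which acts in CD4 lineage choice, had 79.8 ± 5.09 CPM in CKO and 62.0 ± 1.40 CPM in WT (log2 0.36, adjusted p = 0.660), and Runx2, a relative of Runx3, had 7.17 ± 1.13 CPM in CKO and 4.30 ± 0.209 CPM in WT (0.73, 0.660).

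Thymus CD4 SP libraries of CKO mice differed among themselves more than from WT. Cd8a had 2328, 44.0 and 954 CPM in CKO 14, 17 and 23, and 1220, 1105 and 1540 CPM in WT 15, 18 and 24. Cd8b1 had 1684, 47.8 and 439 CPM in the same CKO libraries and 450, 440 and 701 CPM in the WT libraries. Rag1, a gene of the DP stage, had 2013, 30.7 and 953 CPM in CKO and 1103, 713 and 1767 CPM in WT. CKO 17 thus carried few CD8 and DP-stage reads, and CKO 14 carried more than any WT library. The list of 8 DP-stage markers summed to 516.4 to 5429 CPM in CKO and 2604 to 4498 CPM in WT, with every marker above 1 CPM. Dividing cell markers summed to 320 to 637 CPM in CKO and 674 to 981 CPM in WT. NKT cell markers summed to 0.553 to 3.29 CPM in CKO and 5.22 to 5.84 CPM in WT. The part of these lists in the results was not tested.

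Within an animal, CD4 SP cells kept 82.7% (CKO 14), 1.68% (CKO 17) and 34.8% (CKO 23) of the DP level of Cd8a, where WT mice had 42.6% to 56.6%. All 6 libraries labelled CD4 SP therefore held CD8 transcripts, most of them in large amounts. In bulk RNA, fewer cells of a type and less RNA per cell cannot be told apart. CKO 14 also had the lowest Satb1, 1948 CPM, where the other CKO libraries had 3143 and 3365 CPM and WT libraries 3056 to 3700 CPM.

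**Figure D3:**
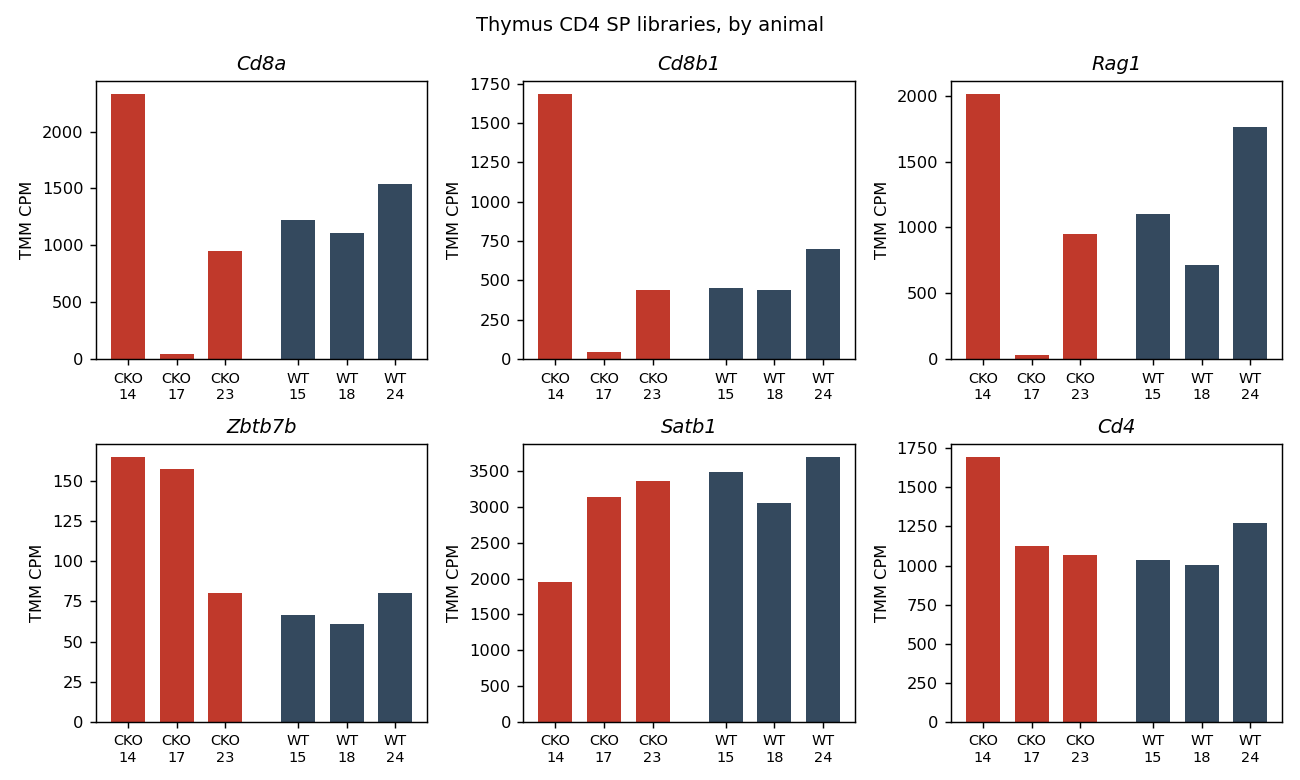
TMM-scaled CPM (bars from 0) in each thymus CD4 SP library, CKO animals 14, 17 and 23 (red) left of WT animals 15, 18 and 24 (dark). Cd8a, Cd8b1 and Rag1 range from 44.0 to 2328, 47.8 to 1684 and 30.7 to 2013 CPM over the CKO animals, more widely than over the WT animals.

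With this spread 0 of the 9 members were called in thymus CD4 SP, as were 0% of 11839 genes; 306 genes and 1 member had an unadjusted p under 0.05, and DESeq2 called 0 members. That member was Zbtb7b, with a log2 of 0.98 ± 0.32 (unadjusted p = 0.0179, adjusted p = 0.958, edgeR). Its CKO 14 and CKO 17 libraries (165 and 158 CPM) lay above all WT libraries, while CKO 23 and WT 24 both had 80.2 CPM. Without CKO 14 and CKO 17, which leaves 1 CKO library, the value was 0.23. Gata3 was the 1 member whose genotypes did not overlap, as did 10.1% of all genes. The estimate for Cd8a was -0.17 with a 95% interval of -2.66 to 2.33, so a change of several fold in either direction was not detectable. The 7 pathway lists gave 0 calls of 84 genes in edgeR (9 at an unadjusted p under 0.05), and DESeq2 gave 1. The CKO effect in CD4 SP minus that in DP was called for 0 of the 9 members and for 0% of 12216 genes (263 at an unadjusted p under 0.05; DESeq2 called 0 members).

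In thymus CD8 SP cells 0 of the 9 were called, where 0.114% of 14911 genes were called. Of the members 2 had an unadjusted p under 0.05 in edgeR, and DESeq2 called 1. Prmt5 itself was lowered least in this population, with a mean of 116 CPM in CKO and 144 CPM in WT. Cd4 had 45.8, 55.7 and 44.8 CPM in CKO and 36.6, 39.0 and 36.5 CPM in WT. Each CKO library was above each WT library (log2 0.38 ± 0.09, unadjusted p = 8.41e-04, adjusted p = 0.135, edgeR). The Cd4 to Cd8a count ratio was 0.0532, 0.0564 and 0.0535 in CKO and 0.0436, 0.0420 and 0.0421 in WT, again without overlap (exact permutation p = 0.1, the smallest possible; 0.667 adjusted). DESeq2 (adjusted p = 0.00339) and edgeR without a filter (4.76e-05) called Cd4 higher in CKO. By the Y-linked gene Ddx3y, CKO 2 and CKO 3 were female and the other 4 animals male. With sex in the fit Cd4 had a log2 of 0.29 and an adjusted p of 0.682 (edgeR). Only CKO 1 shared the sex of the WT libraries, so sex and genotype largely cannot be told apart in this population.

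The estimates for the remaining members of thymus CD8 SP stayed within a log2 of 0.32 of WT. Those of Zbtb7b and Runx3, both counted at low levels, were loose. When 1 library was left out, Zbtb7b ran over -0.59 to -0.015 and Runx3 over -0.84 to 0.042. Cbfb had -0.11 ± 0.05 (adjusted p = 0.475), and Runx1 (0.10, 0.587) and Satb1 (0.08, 0.531) had genotypes without overlap. With Cd4 that made 3 of 9, where 15.4% of all genes did not overlap. The lists gave 0 calls of 84 genes in edgeR (12 at an unadjusted p under 0.05), and DESeq2 gave 3. Lef1, a factor of CD8 lineage choice, had 373 ± 13.7 CPM in CKO and 439 ± 34.7 CPM in WT (log2 -0.23, adjusted p = 0.167), and Il4ra, a cytokine receptor chain, had 79.9 ± 0.801 CPM in CKO and 93.2 ± 0.531 CPM in WT (-0.22, 0.0999). DESeq2 and edgeR without a filter called Lef1 (0.00867 and 4.46e-04) and Il4ra (0.0101 and 0.0194) lower, and Lef1 was also called without WT 1 (0.0235). The libraries carried DP-stage markers (2558 to 2773 CPM in CKO, 2285 to 2545 CPM in WT) and markers of division (4432 to 4576 CPM in CKO, 3921 to 4374 CPM in WT), while Zbtb7b stood at 0.487 to 1.01 CPM in CKO and 0.579 to 1.40 CPM in WT and Runx3 at 2.25 to 6.14 CPM in CKO and 3.10 to 5.99 CPM in WT.

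**Figure D4:**
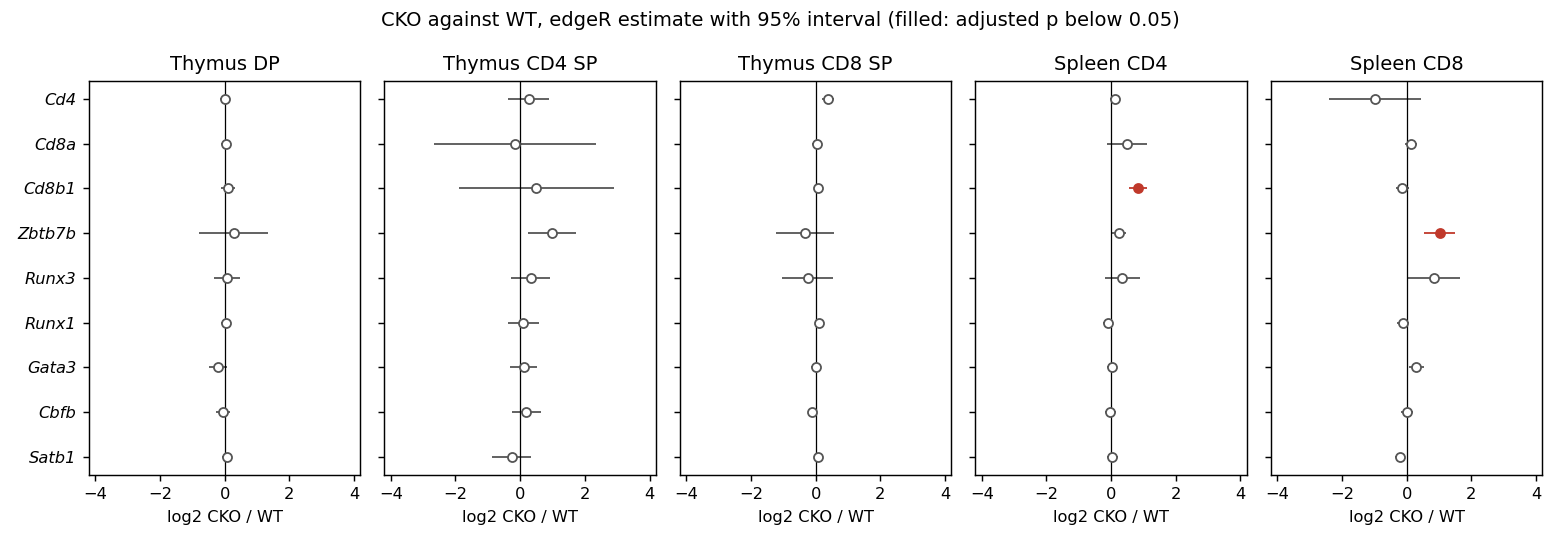
Log2 fold change of CKO over WT for the 9 genes in 5 populations, with 95% intervals from edgeR; filled red points have an adjusted p below 0.05. The 2 filled points are Cd8b1 in spleen CD4 (0.82) and Zbtb7b in spleen CD8 (1.03), and the widest intervals are those of Cd8a and Cd8b1 in thymus CD4 SP.

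Spleen CD4 cells had 1 member called, Cd8b1, which was higher in CKO; 14.2% of 14292 genes were called in this population, and 8.53% were called higher. Cd8b1 had 15.3, 16.7 and 15.9 CPM in CKO and 8.44, 9.55 and 9.10 CPM in WT. All CKO libraries lay above all WT libraries (log2 0.82 ± 0.12, a 1.77-fold higher level, adjusted p = 0.00115). Its partner Cd8a had 4.66, 3.41 and 5.37 CPM in CKO and 2.29, 4.55 and 2.75 CPM in WT, with overlap (log2 0.49 ± 0.29, adjusted p = 0.297). The Cd8b1 call held in each alternative tried, with a log2 of 0.78 to 0.87 when 1 library was left out.

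Set against CD8 cells of the same genotype, spleen CD4 cells carried 2.15% to 2.35% of the Cd8b1 level in CKO and 1.08% to 1.22% in WT. For Cd8a the shares were 0.264% to 0.417% in CKO and 0.195% to 0.388% in WT. The Cd8a to Cd8b1 count ratio was 0.205 to 0.338 in spleen CD4 of CKO and 0.273 to 0.477 in spleen CD4 of WT, where spleen CD8 libraries had 1.68 to 1.91 in CKO and 1.47 to 1.52 in WT. CD4 libraries of both genotypes thus held fewer Cd8a than Cd8b1 counts, and CD8 libraries more. The level remained low, at 395 to 427 reads per library in CKO and 221 to 252 in WT.

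The other 8 members did not pass in spleen CD4. Zbtb7b had 209 ± 22.97 CPM in CKO and 177 ± 21.7 CPM in WT (log2 0.24 ± 0.10, adjusted p = 0.126); it passed without CKO 68 (0.0493) and without a filter (0.0222). Cd4 had 0.11 ± 0.06 (0.254), and with Cd8b1 it made 2 members whose genotypes did not overlap, where 33% of all genes did not. Runx3 (0.35 ± 0.25, 0.396), Runx1 (-0.11 ± 0.06, 0.279), Gata3 (0.04, 95% interval -0.12 to 0.19), Cbfb (-0.03, -0.19 to 0.14) and Satb1 (0.04, -0.12 to 0.20) missed the threshold as well.

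Around these genes, of 10 helper lineage genes tested in spleen CD4 cells of CKO mice 0 were higher, 6 lower and 4 not called (median log2 -0.48, against -0.01 for all genes). Of all genes 14.2% were called in spleen CD4 cells, the share to set beside each list count. The lists were chosen with earlier results of these data known, so their counts and medians describe the listed genes and test no list. Cxcr5, the receptor that guides helper cells to follicles, had 7.96 ± 1.89 CPM in CKO and 26.9 ± 8.10 CPM in WT (log2 -1.75 ± 0.21, adjusted p = 2.87e-04). Icos (-0.71 ± 0.09, 3.84e-04), Cd28 (-0.45 ± 0.08, 0.00252) and Il2ra (-0.50 ± 0.09, 0.00347), all costimulatory or growth receptors, fell as well. Of 14 cytotoxic genes 4 were higher, 2 lower and 8 not called (median 0.11). The integrin chain Itgae (1.02 ± 0.18, 0.00290), the NK receptor chain Klrd1 (1.03 ± 0.18, 0.00334) and the protease Gzma (1.58 ± 0.29, 0.00413) rose, while Cst7, a protease inhibitor, fell (-1.15 ± 0.20, 0.00252).

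Among the 10 receptor complex partners 2 were higher, 1 lower and 7 not called. For this and the other spleen CD4 lists, 14.2% of all genes were called. Lck, the kinase that coreceptors carry, had 728 ± 42.5 CPM in CKO and 407 ± 28.0 CPM in WT (log2 0.84 ± 0.07, edgeR adjusted p = 2.93e-05), Ptprc, the phosphatase that acts on Lck, rose by 0.54 ± 0.07 (3.87e-04), and Fyn, a related kinase, fell by 0.29 ± 0.07 (0.0125). The cytokine list of 12 genes holds signals that act on Runx3 and also the survival gene Bcl2. Of these 12, 4 were higher, 2 lower and 6 not called. Stat6 (0.42 ± 0.07, 0.00211) and Il7r (0.41 ± 0.08, 0.00720) rose and Stat5a (-0.40 ± 0.08, 0.00888) fell. Bcl2 was among the higher genes (0.33 ± 0.07, 0.00820). Of the 14 factors acting on the ThPOK gene 1 was higher, 2 lower and 11 not called, with Tox lower (-0.40 ± 0.07, 0.00302); 1 call was left without WT 70 or CKO 72. Of 11 chromatin genes 3 were higher, 1 lower and 7 not called, with Tet3, a demethylating enzyme, higher (0.30 ± 0.07, 0.0139), a call lost without WT 67 (0.0539) or WT 71 (0.0593); the list gave 1 or 2 calls without WT 67, WT 70, WT 71, CKO 68 or CKO 72. Of 14 Runx partners edgeR called 0, with 2 at an unadjusted p under 0.05, and DESeq2 called 2. Tle1, a corepressor, had -0.42 ± 0.13 (0.0567) and was called lower by DESeq2 (0.0390), by voom (0.0470), by edgeR without a filter (0.0214) and without CKO 68 (0.0163).

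Marker lists of other cells also moved in spleen CD4. Effector CD8 T cell markers (6 of 6 above 1 CPM) summed to 46.6 to 83.3 CPM in CKO and 19.3 to 29.5 CPM in WT. Regulatory T cell markers (4 of 4 above 1 CPM) summed to 365 to 418 CPM in CKO and 538 to 630 CPM in WT. Within that list Foxp3 was not called (log2 -0.08, adjusted p = 0.564, edgeR), while Il2ra fell. NKT cell markers (2 of 2) summed to 6.26 to 8.04 CPM in CKO and 25.5 to 29.2 CPM in WT. Myeloid markers (7 of 8 above 1 CPM) summed to 108 to 236 CPM in CKO and 63.0 to 88.6 CPM in WT. Gamma delta T cell markers summed to 1.43 to 2.33 CPM in CKO and 0.183 to 1.02 CPM in WT, with 1 of 4 at 0 in all libraries. Dendritic markers, 1 of 6 above 1 CPM, summed to 6.70 to 9.90 CPM in CKO and 3.75 to 4.37 CPM in WT. The part of these cells in the Cd8b1 value was not tested.

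Spleen CD8 cells also had 1 member called, Zbtb7b, which was higher in CKO; 16.1% of 13917 genes were called in this population, and 9.83% were called higher. Zbtb7b had 11.3, 7.67 and 13.4 CPM in CKO and 4.94, 4.70 and 6.27 CPM in WT. Each CKO library lay above each WT library (log2 1.03 ± 0.22, a 2.04-fold higher level, adjusted p = 0.00886). The call was lost without WT 67 (log2 0.97, adjusted p = 0.0501) and held, at 0.00228 to 0.0423, without any other single library. Its antisense neighbour Gm15417 had at most 0.226 CPM in any spleen CD8 library.

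**Figure D5:**
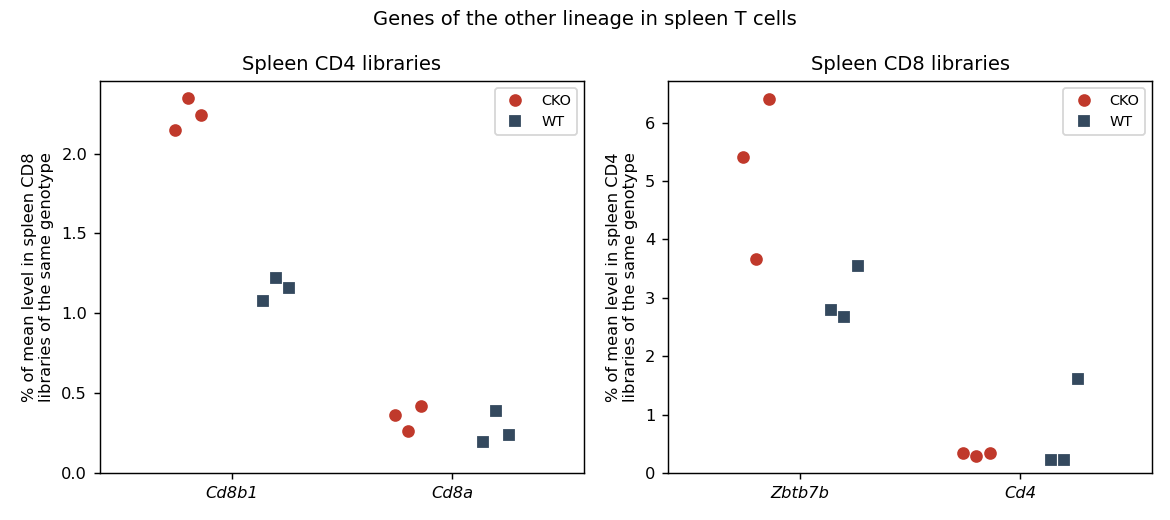
Genes of the other lineage as a percentage of the mean level in the other spleen population of the same genotype, CKO (red circles) left of WT (dark squares). In spleen CD4 libraries Cd8b1 is at 2.15% to 2.35% in CKO and 1.08% to 1.22% in WT while Cd8a is at 0.264% to 0.417% in CKO and 0.195% to 0.388% in WT; in spleen CD8 libraries Zbtb7b is at 3.67% to 6.40% in CKO and 2.66% to 3.55% in WT, and Cd4 is above 1% in WT 71.

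The rise was small beside the CD4 lineage. Spleen CD8 cells carried 5.40%, 3.67% and 6.40% of the CD4 cell level of Zbtb7b in CKO and 2.80%, 2.66% and 3.55% in WT. Cd4 itself was at 0.283% to 0.341% of the CD4 cell level in CKO and 0.216% to 1.603% in WT, a smaller share than that of Zbtb7b in each of the 6 libraries. The Cd4 transcript had a log2 of -0.98 ± 0.64 (adjusted p = 0.342), a sign set by WT 71: without it the value was 0.63 (0.209).

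Runx3, which represses Zbtb7b, was not called in spleen CD8. It had 6.26, 7.17 and 19.4 CPM in CKO and 7.24, 5.40 and 5.73 CPM in WT, so the estimate of 0.84 ± 0.37 (adjusted p = 0.154) rested on CKO 72. Without CKO 72 it was 0.13, and without CKO 65 it was 1.11 and passed (0.0380). Zbtb7b and Runx3 did not run in parallel over the CKO animals, since CKO 65 had 1.80 Zbtb7b counts for each Runx3 count, CKO 68 had 1.07 and CKO 72 had 0.691, against 0.683 to 1.09 in WT libraries.

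Gata3 and Satb1 lay near the threshold in spleen CD8. Gata3 had 59.4, 69.7 and 76.3 CPM in CKO and 54.3, 53.4 and 59.5 CPM in WT (log2 0.30 ± 0.10, adjusted p = 0.0644). Satb1 had 719, 779 and 782 CPM in CKO and 840, 883 and 926 CPM in WT, with no overlap (-0.21 ± 0.07, 0.0523). DESeq2 called Gata3 higher (0.0459) and Satb1 lower (0.0414), and so did voom (0.0376 and 0.0334) and the fit over all 12 spleen libraries (0.0312 and 0.0429). Satb1 and Zbtb7b were the 2 members without overlap between genotypes, where 35.5% of all genes had none. Cd8a (0.14 ± 0.09, 0.327), Cd8b1 (-0.13 ± 0.09, 0.352), Runx1 (-0.12 ± 0.09, 0.419) and Cbfb (0.02, 95% interval -0.17 to 0.21) did not pass.

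Of 14 cytotoxic lineage genes tested in spleen CD8 cells of CKO mice 7 were higher, 0 lower and 7 not called (median log2 0.41, against -0.01 for all genes). Of all genes 16.1% were called in spleen CD8 cells, the share to set beside each list count. Because the lists were chosen with earlier results of these data known, list counts and medians describe the listed genes and test no list. Tbx21, which encodes the effector factor T-bet, had 73.9 ± 15.1 CPM in CKO and 28.3 ± 4.28 CPM in WT (1.39 ± 0.15, adjusted p = 2.87e-04, edgeR), Gzmb 83.6 ± 32.4 CPM in CKO and 14.98 ± 7.62 CPM in WT (2.48 ± 0.37, 0.00128). The chemokine Ccl5 (1.66 ± 0.20, 3.90e-04) and the cytokine Ifng (1.33 ± 0.16, 4.33e-04) rose too. Of 14 factors acting on the ThPOK gene and lineage choice 2 were higher, 5 lower and 7 not called, with 3 or 4 calls without WT 70, WT 71 or CKO 72. Lef1 (-0.45 ± 0.07, 0.00176), Tcf7 (-0.38 ± 0.08, 0.00712) and Bcl11b (-0.29 ± 0.06, 0.0105), factors of early and naive T cells, fell.

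Of 14 Runx partners and corepressors 2 were higher, 1 lower and 11 not called. For this and the other spleen CD8 lists, 16.1% of all genes were called. Runx2, which shares the DNA site and the partner Cbfb with Runx3, had 77.7 ± 14.9 CPM in CKO and 31.9 ± 4.63 CPM in WT (log2 1.29 ± 0.15, adjusted p = 3.23e-04, edgeR), and Cbfa2t3, a corepressor, had 2.71 ± 0.713 CPM in CKO and 0.810 ± 0.311 CPM in WT (1.74 ± 0.37, 0.00903). Of the 12 genes on the cytokine list 4 were higher, 2 lower and 6 not called. Il2rb (0.50 ± 0.09, 0.00369) and the survival gene Bcl2 (0.27 ± 0.07, 0.0287) were among the higher. The list gave 1 to 3 calls without WT 67, WT 70, WT 71, CKO 65 or CKO 72. Of 9 helper genes tested 2 were higher, 0 lower and 7 not called: Il2ra (0.77 ± 0.20, 0.0242) and Foxp3 (1.25 ± 0.33, 0.0275), both also regulatory T cell markers. Il2ra missed the threshold without WT 70, WT 71, CKO 65 or CKO 68 (0.0529 to 0.0935) and Foxp3 without WT 67, WT 70, CKO 65 or CKO 68 (0.0539 to 0.109). Of 11 chromatin genes 4 were higher, 0 lower and 7 not called, among them Uhrf1 (0.82 ± 0.09, 3.23e-04) and Dnmt1 (0.39 ± 0.08, 0.00531), which maintain DNA methylation, and Smarcb1 (0.48 ± 0.08, 0.00181). Of 10 receptor partners 3 were higher, 0 lower and 7 not called, with Lck at 745 ± 25.1 CPM in CKO and 436 ± 40.4 CPM in WT (0.78 ± 0.08, 1.52e-04) and Ptprc (0.57 ± 0.06, 1.68e-04).

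Markers of effector CD8 cells (6 of 6 above 1 CPM) summed to 223 to 502 CPM in CKO and 33.9 to 114 CPM in WT, and those of naive cells (5 of 5) to 2524 to 2611 CPM in CKO and 3243 to 3419 CPM in WT. Regulatory T cell markers summed to 163 to 179 CPM in CKO and 89.9 to 113 CPM in WT. Foxp3 was a small part of that sum, at a mean of 5.25 CPM in CKO and 2.20 CPM in WT. NKT markers summed to 9.81 to 13.7 CPM in CKO and 3.64 to 6.52 CPM in WT, and dividing cell markers to 270 to 406 CPM in CKO and 123 to 145 CPM in WT. NK markers summed to 104 to 146 CPM in CKO and 91.3 to 96.3 CPM in WT, gamma delta markers to 0.937 to 2.41 CPM in CKO and 0.155 to 0.505 CPM in WT, and myeloid markers to 42.1 to 63.4 CPM in CKO and 19.0 to 27.1 CPM in WT. The dendritic list (56.5 to 85.5 CPM in CKO, 11.6 to 23.6 CPM in WT) had 1 of 6 genes above 1 CPM, Itgax. Whether the Zbtb7b value follows the share of effector or other cells was not tested.

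The CKO effect in spleen CD8 minus that in spleen CD4 was tested over 12 libraries of the same mice. Cd8b1 was the 1 member called of 9, at a log2 of -0.96 ± 0.13 (adjusted p = 0.00103, edgeR), where 2.56% of 14958 genes were called. It was higher in CKO only among CD4 cells: 0.82 in spleen CD4 and -0.13 in spleen CD8. Zbtb7b had a difference of 0.78 ± 0.23 (0.0997), and Satb1 -0.26 ± 0.10 (0.253). With the animal as a block 7.24% of the 14958 genes and 3 members were called, Cd8b1, Zbtb7b (0.76, 0.00965) and Satb1 (-0.25, 0.0494). Runx1 (-0.01, 95% interval -0.23 to 0.22) and Cbfb (0.04, -0.21 to 0.29) had differences near 0.

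The genes whose levels ran most like the members' over the 12 spleen libraries were, by Pearson correlation of log2 CPM among 9083 genes, St3gal2, Nav2 and Rb1 for Zbtb7b (r = 0.994, 0.994 and 0.991) and Eng, Mcoln2 and Dpp4 for Cd8b1 (0.995, 0.994 and 0.993). For Runx3 they were Ptpn12, Oas3 and Nin, at a lower 0.931, 0.924 and 0.923. Cd4 ran with Myo10 (0.993), Cd8a with Adgrg5 (0.996), Runx1 with St8sia6 (0.990), Gata3 with Sypl (0.990), Satb1 with Sipa1l1 (0.958) and Cbfb with Tmx3 (0.926). Over the 12 thymus DP and CD4 SP libraries, among 9255 genes, Cd8b1 ran with Dntt (0.999), a DP-stage gene, and Cd8a with Endou (0.997). Zbtb7b ran there with Itgb3 and Izumo1r (0.992 and 0.991), Runx3 with Klhl18 (0.992), and Satb1 with Reep3 (0.989). The libraries of a table fall into 2 sorted populations, so these correlations share that contrast, and no p is given.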

How the data were processed

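The deposited values are raw read counts per gene, made by the authors and held in 3 tables: spleen (CD4 and CD8), thymus CD8 SP, and thymus DP and CD4 SP together. Poly(A) selection and a directional kit were used, per the labels' protocols. HISAT2, HTSeq and the build GRCm38 appear in the tool list, per the submitters' processing notes; their versions, and whether counting used strand, are not stated there. Groups, replicate and animal numbers come from sample titles; numbers of thymus CD8 SP libraries are not tied to animals, so p-values there measure only the spread between these samples.

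Each comparison was fitted on all genes with edgeR 4.0.16 in R 4.3.3 (filterByExpr, TMM, quasi-likelihood test, Benjamini-Hochberg, 0.05). Within-library log2 ratios used a pseudocount of 0.5 and two-sided exact permutation tests, 20 in all. Alternatives were DESeq2 1.42.0, its size factors, limma 3.58.1 voom with quality weights, other filters, 12-library fits, sex, blocks and leaving out libraries. Animal numbers pair spleen CD4 with spleen CD8 and thymus DP with thymus CD4 SP, per the labels; deviations correlated at 0.0989 to 0.317 within a spleen animal and -0.187 to 0.0109 between animals, and at -0.135 to 0.210 within and -0.215 to 0.168 between thymus animals. Data were simulated with a log2 change of 1 to test edgeR. It recovered 72.5% of changed genes in spleen CD8 (13917 genes), 77.5% in spleen CD4 (14292) and 0% in thymus CD4 SP (11839). Recovery was 70.5% in thymus CD8 SP (14911) and 58.5% in the spleen difference of effects (14958). Of its calls 7.64% (spleen CD8), 7.74% (spleen CD4), 10.8% (thymus CD8 SP) and 8.59% (spleen difference) were false, each above the share that the 0.05 threshold sets.

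The rule for named genes took all 9 members, Prmt5, and up to 4 genes of each pathway list by smallest p; for likeness, up to 3 of the top genes with at least 5 CPM. A withheld item is not reported here. Members and lists were chosen with earlier results of these data known. Coordinates and lengths are from GENCODE M21 on GRCm38. Every pair of libraries within a group differed by more than sampling noise.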

Additional observations from a re-analysis of the deposited data

Results flagged for a closer look

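An interaction test over 12 libraries in edgeR asked where effects of the knockout differed between spleen CD8 and spleen CD4 cells. It called 1 member and 11 of the pathway genes named above for the spleen, where 2.56% of 14958 genes were called. Those pathway genes had been picked for their smallest p in CKO against WT on the same libraries. Their count is therefore not a test of the pathway lists. As log2 effect in CD8 minus that in CD4, Cd8b1 had -0.96 (adjusted p = 0.00103). The signed difference was positive for Ifng at 2.17 (6.44e-04), Tbx21 at 1.83 (0.00992), Cxcr5 at 1.55 (0.0252), Foxp3 at 1.33 (0.0229), Il2ra at 1.26 (9.55e-04), Cst7 at 1.25 (0.00493), Il2rb at 0.84 (0.00327) and Fyn at 0.56 (0.00206). It was negative for Itgae at -1.08 (0.0142), Klrd1 at -0.92 (0.0324) and Lef1 at -0.41 (0.0351). A positive difference can come from a fall in CD4 cells: Cxcr5 had a log2 of -0.21 in CD8 and -1.75 in CD4 cells, Cst7 0.10 in CD8 and -1.15 in CD4 cells, and Fyn 0.28 in CD8 and -0.29 in CD4 cells. Groups hold 3 libraries each, too few for a test of single outlying samples.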

How the results depend on the processing

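The Cd8b1 call in spleen CD4 held in every alternative run there, and the Zbtb7b call in spleen CD8 in all but the fit without WT 67. In thymus CD8 SP, DESeq2 and the unfiltered fit each called 1 member, Cd4. The unfiltered fit called 2 in spleen CD4, and leaving out 1 library gave 1 to 2. In spleen CD8, DESeq2, voom and the 12-library fit each called 3, the filter at 5 CPM called 2, the unfiltered fit 5, and leaving out 1 library gave 0 to 3. For the spleen difference of effects DESeq2 called 2 and the unfiltered fit 3, and leaving out 1 animal gave 1 to 2. Regulators called in CKO were 0 to 2 in the thymus contrast and 3 to 5 in the spleen contrast when 1 animal was left out. The pairing by animal, as a replicate block, raised the spleen difference of effects to 3 members and 1083 genes; the CKO population contrasts then had 233 genes (thymus, 637 without the block) and 5055 (spleen, 2656 without it), and no other member count changed. Replicate numbers in thymus CD8 SP share only a number: the replicate block called 0 members, and Prmt5 had an adjusted p of 0.0674 there.

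Genes called in all were 14 (DESeq2) and 0 (12 libraries) against 3 in thymus DP, 1 (DESeq2) against 0 in thymus CD4 SP, 205 (DESeq2), 450 (no filter) and 3 (sex in the fit) against 17 in thymus CD8 SP, 1724 (DESeq2) against 637 in the CKO thymus contrast, and 637 (DESeq2) and 844 (no filter) against 383 in the spleen difference. Leaving out 1 library or animal gave 1055 to 2156 in the CKO spleen contrast (all libraries 2656), 0 to 1964 in the CKO thymus contrast (all libraries 637), 1085 to 2144 in spleen CD4 (all libraries 2024), 1315 to 2298 in spleen CD8 (all libraries 2234), 165 to 556 in the spleen difference of effects (all libraries 383), 1 to 48 in thymus CD8 SP (all libraries 17), 1 to 40 in thymus DP (all libraries 3), 0 to 1 in the thymus difference of effects (all libraries 0) and 2714 to 4307 in the WT thymus contrast (all libraries 4706) genes. The cause of these changes was not tested. The spleen animals were of 1 sex. Leaving out both CKO 14 and CKO 17 was chosen after seeing the data.

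Of 1481 gene values under alternatives 45 changed sign, and none of these was called in either fit. With voom Runx3 had -0.12 and Cbfb 0.013 in thymus DP, and Cd8b1 -1.31 in thymus CD4 SP. With sex in the fit Cd8b1 had -0.24 in thymus CD4 SP and Cd8a -0.029 in thymus CD8 SP. Without CKO 14 and CKO 17 Cd4 had -0.031 and Cd8b1 -0.25. With the animal block Cd8b1 had -0.70 in the thymus difference, and Runx1 had 0.0030 in the spleen difference with DESeq2 and with its size factors. Leaving out 1 library also turned the values that follow, given as lowest to highest log2. For the CKO spleen contrast it was -0.015 to 0.064 for Cbfb. In spleen CD4 the range was -0.073 to 0.028 for Cbfb, -0.0050 to 0.092 for Gata3 and -0.026 to 0.10 for Satb1. For spleen CD8 it was -0.040 to 0.10 for Cbfb and -1.41 to 0.63 for Cd4. In thymus DP the range was -0.13 to 0.040 for Cbfb, -0.034 to 0.048 for Cd4, -0.20 to 0.20 for Runx3 and -0.074 to 1.18 for Zbtb7b. For the spleen difference of effects it was -1.52 to 0.53 for Cd4, -0.068 to 0.069 for Runx1 and -0.22 to 0.94 for Runx3. In thymus CD4 SP the range was -0.023 to 0.39 for Cd4, -1.37 to 0.40 for Cd8a and -1.12 to 1.06 for Cd8b1. For the thymus difference of effects it was -0.029 to 0.40 for Cd4, -1.37 to 0.28 for Cd8a, -1.20 to 0.79 for Cd8b1, -0.037 to 0.22 for Runx1 and -0.11 to 1.02 for Zbtb7b. In thymus CD8 SP the range was -0.048 to 0.078 for Cd8a, -0.056 to 0.038 for Gata3 and -0.84 to 0.042 for Runx3. The log2 Cd4 to Cd8a ratio difference was -0.99 to 0.54 in spleen CD8 and -0.063 to 0.0040 in thymus DP. The log2 Cd8a to Cd8b1 ratio difference was -0.12 to 0.019 in thymus CD8 and -0.15 to 0.0066 in thymus DP. The log2 Runx1 to Runx3 ratio difference was -0.14 to 0.22 in thymus DP. The log2 Zbtb7b to Runx3 ratio difference was -0.24 to 0.085 in spleen CD4, -0.011 to 0.68 in spleen CD8 and -0.43 to 0.36 in thymus CD8. Depth limits Zbtb7b in thymus DP, counted 14 to 59 times per library.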
